A study of Caenorhabditis elegans with 12 samples.

Results

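Worms must carry glucose into cells and trap it there by phosphorylation before it can be burned in glycolysis, stored, or sent through the pentose phosphate pathway. Described here are 9 Caenorhabditis elegans genes of these entry steps, chosen by name as the gene table gives them: the hexose transporter fgt-1, the hexokinases hxk-1, hxk-2 and hxk-3, the glucose-phosphate isomerase gpi-1, the phosphofructokinase pfk-1.1, the glucose-6-phosphate dehydrogenase gspd-1, the transketolase tkt-1 and the transaldolase tald-1. They were 9 of 15365 genes in the table, and all 9 were among the 12151 genes that passed the filter of a mean above 1 FPKM and were tested. FPKM, a length-scaled abundance, divides the fragments of a gene by its length and by the size of the library. The RNA came from whole wild-type N2 worms placed on the plates as synchronized L4 larvae, fed Escherichia coli OP50 and kept for several days with their progeny removed by sedimentation. Nar+Glu worms received 2% glucose and 25 μM naringin, a citrus flavonoid, dissolved in dimethyl sulfoxide (DMSO). DMSO+Glu worms received 2% glucose and that solvent, Glu worms 2% glucose alone, and Control worms neither glucose nor solvent. Each group had 3 libraries, 12 in all. Naringin without glucose and solvent without glucose were not analysed here, so naringin is set against its solvent by Nar+Glu with DMSO+Glu, and glucose against no glucose by Glu with Control. No source used here says whether the 3 libraries of a group came from separate cultures, so p-values measure the spread between these libraries, which may be technical.

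In animals, facilitative transporters of the GLUT family let glucose cross the cell membrane along its gradient, and FGT-1 is the member of this family known to carry glucose in C. elegans. Hexokinase turns glucose into glucose 6-phosphate, the branch point of the pathway. Glucose-phosphate isomerase converts it to fructose 6-phosphate and back, and phosphofructokinase then carries out the committed step of glycolysis. Glucose-6-phosphate dehydrogenase instead commits glucose 6-phosphate to the oxidative pentose phosphate pathway. That pathway yields NADPH for lipid synthesis and for the reduction of glutathione and thioredoxin. Transketolase and transaldolase then move carbon units among sugar phosphates and return the surplus to glycolysis as fructose 6-phosphate and glyceraldehyde 3-phosphate.

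The summed FPKM of all genes was 308900 to 320361 in the Nar+Glu libraries and 335208 to 362748 in the Control libraries, and the 9 genes together held 0.112% to 0.129% of it in each of the 12 libraries. How many fragments each value rests on is not known, and no counting interval is given. In whole worms, fewer cells of a type and less RNA per cell cannot be told apart. Marker lists for intestine, body wall muscle, hypodermis, neurons, sperm, oocytes with early embryos and germline were all found, and none of their genes was at 0 throughout a group. The 12 oocyte and early embryo markers summed to 2878 to 3040 FPKM in Nar+Glu, 3193 to 3444 in DMSO+Glu, 3158 to 3450 in Glu and 3509 to 3893 FPKM in Control. By the limma test (adjusted p below 0.05), 4 of 12 were called lower in Nar+Glu against DMSO+Glu and 10 of 12 in Glu against Control. Of all tested genes, 5% were called lower and 4.87% higher in the first comparison, and 18.7% and 12.6% in the second. The 6 germline markers summed to 428 to 464 FPKM in Nar+Glu, 463 to 492 in DMSO+Glu, 472 to 513 in Glu and 539 to 574 FPKM in Control, with 0 of 6 called in Nar+Glu against DMSO+Glu and 4 of 6 lower in Glu against Control. The 16 sperm markers summed to 33.9 to 43.7 FPKM in Nar+Glu and 87.5 to 109.7 in DMSO+Glu (14 of 16 lower), and to 159.3 to 163.5 FPKM in Glu and 79.6 to 103.3 in Control (12 of 16 higher). The 6 hypodermis markers summed to 226.6 to 267.7 FPKM in Nar+Glu and 388.6 to 402.6 in DMSO+Glu (3 of 6 lower), and to 412.0 to 461.6 FPKM in Glu and 414.2 to 435.2 in Control (1 of 6 higher). The 6 body wall muscle markers summed to 370.2 to 418.2 FPKM in Nar+Glu and 452.4 to 473.8 in DMSO+Glu (2 of 6 lower), and to 477.2 to 521.2 FPKM in Glu and 379.9 to 451.8 in Control (4 of 6 higher). In Nar+Glu against DMSO+Glu, differences were positive for 3 and negative for 3 of the hypodermis markers, and likewise of the muscle markers. Those sums thus do not stand for every gene of their lists. The 7 neuron markers summed to 175.9 to 192.0 FPKM in Nar+Glu and 163.1 to 185.5 in DMSO+Glu (2 of 7 higher), and to 174.5 to 188.3 FPKM in Glu and 138.0 to 151.0 in Control (6 of 7 higher). The 7 intestine markers summed to 4373 to 4657 FPKM in Nar+Glu and 4307 to 4743 in DMSO+Glu (2 of 7 lower), and to 4191 to 4350 FPKM in Glu and 4694 to 4868 in Control (3 of 7 higher and 3 lower). Some of these sums separated the groups and others overlapped, and they ran in both directions. Their part in the results that follow was not tested.

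Per length, the 9 transcripts spanned a moderate to a high range. tkt-1 had the highest level, with a mean of 108.9 FPKM over the 12 libraries, above 97.3% of all genes in the table, and hxk-1 followed with 80.6 FPKM, above 95.9%. gpi-1 (48.0 FPKM), tald-1 (37.99), hxk-3 (34.8), hxk-2 (29.8), gspd-1 (27.3) and fgt-1 (21.5) lay between, and pfk-1.1 was lowest with 13.1 FPKM, above 63.2% of genes. For 7 of the 9 genes the group means ran in one order, lowest in Nar+Glu, then Glu, then DMSO+Glu, and highest in Control. The exceptions were hxk-3, whose means ran DMSO+Glu, Control, Glu, Nar+Glu from low to high, and pfk-1.1, whose means ran Nar+Glu, Control, Glu, DMSO+Glu. Of these neighbours, Nar+Glu and Glu passed the threshold of the limma test (an adjusted p below 0.05) for tkt-1 alone of the 9, and Glu and DMSO+Glu for none. For some of the others the libraries of such neighbours did not overlap, as counted with each comparison.

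**Figure D1:**
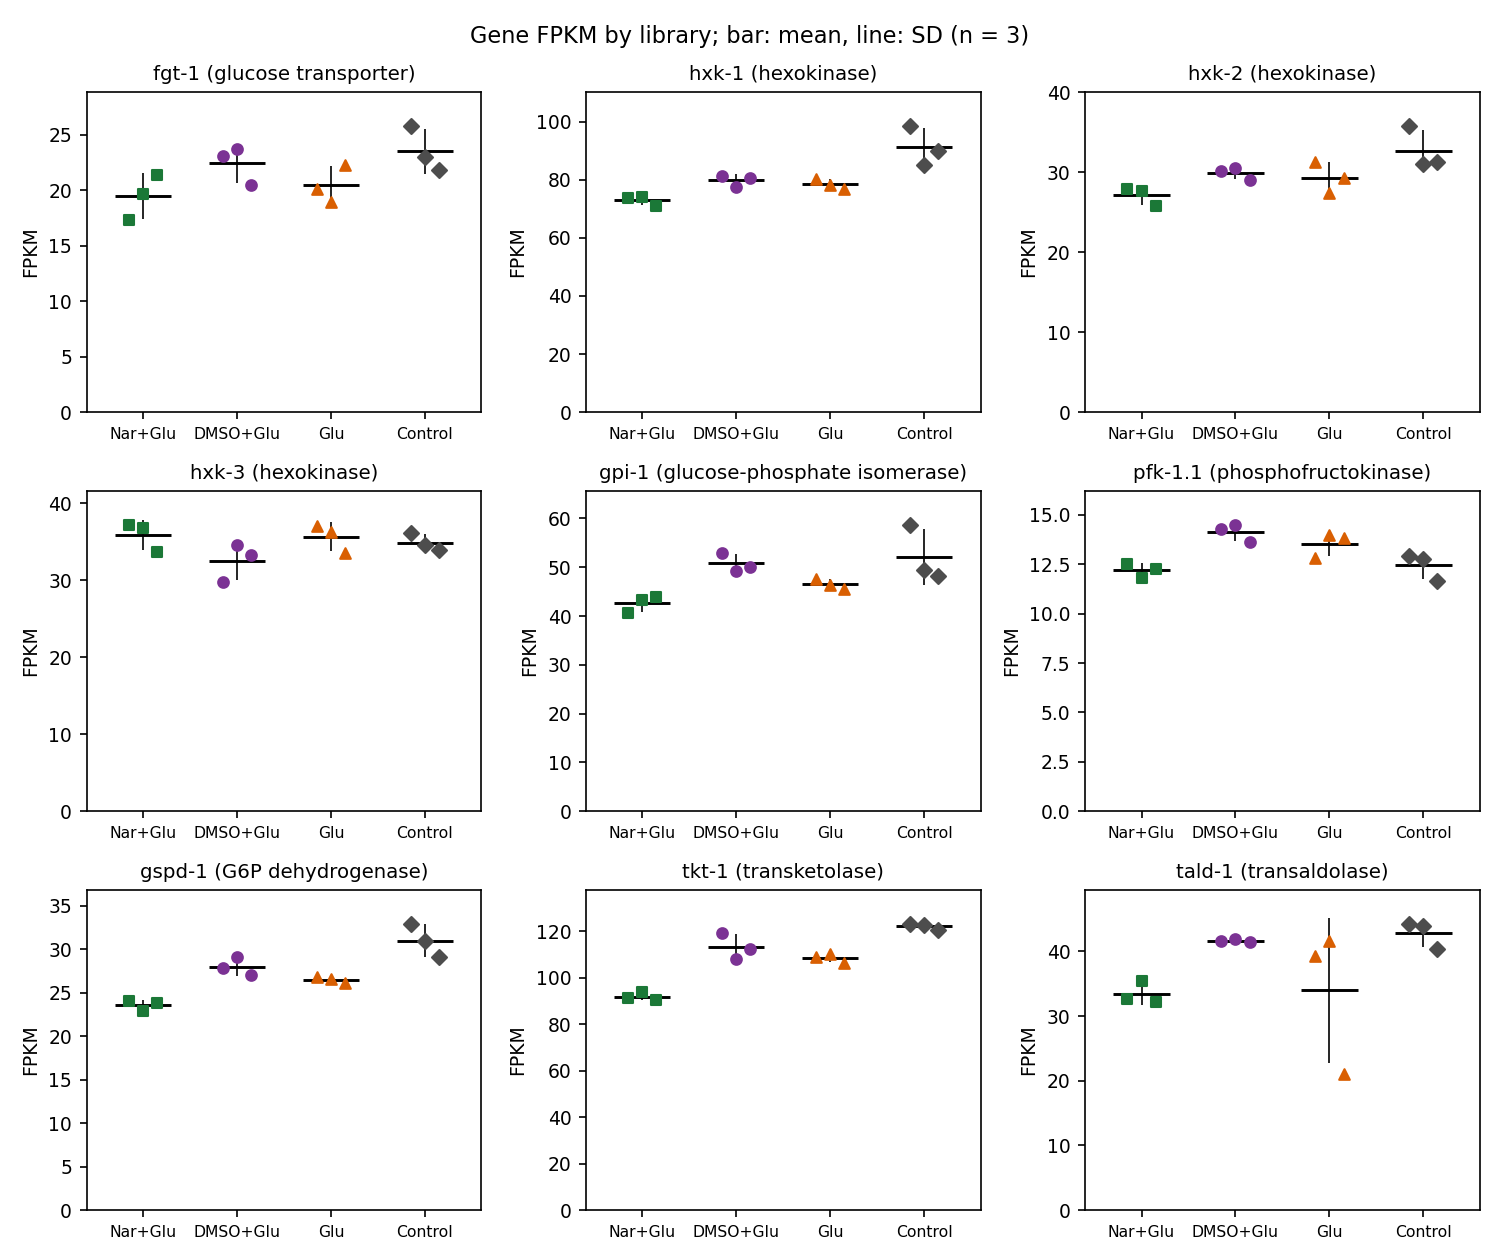
Gene FPKM (y axes, from 0) of the 9 genes in each library, by group (x axes). Points are libraries, bars are group means and thin lines are SD (n = 3). The 3 Nar+Glu libraries of tkt-1 sit between 90.5 and 93.7 FPKM, below all other libraries, and 1 Glu library of tald-1 sits apart at 21.05 FPKM.

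The transporter fgt-1 (sequence name H17B01.1, listed as fdgt-1 in the WBcel235 annotation) lies on chromosome II from 1504566 to 1509831, plus strand, and overlaps the noncoding gene Y51H7BM.2 on the same strand. It measured 17.3, 19.7 and 21.4 FPKM in Nar+Glu, 23.1, 23.7 and 20.4 in DMSO+Glu, 20.1, 18.9 and 22.3 in Glu and 25.8, 23.0 and 21.8 FPKM in Control. The Nar+Glu libraries lay below all Control libraries but overlapped the DMSO+Glu and Glu libraries. On the log2(FPKM + 1) scale, which understates changes of low genes, the difference of Nar+Glu from DMSO+Glu was -0.20 (SE 0.09, limma adjusted p = 0.199), and that of Glu from Control was -0.19 (SE 0.09, limma adjusted p = 0.124). Only Nar+Glu against Control passed the threshold, at -0.26 (limma adjusted p = 0.0295). That call was lost without Nar+Glu replicate 1 (adjusted p = 0.131), Nar+Glu replicate 2 (0.0527) or Control replicate 1 (0.115), all by limma, and under median-ratio scaling (0.105) and quantile normalization (0.342).

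The 3 hexokinase genes differed in their pattern. hxk-1 and hxk-2 lie on chromosome I (9271479 to 9278689 and 11311524 to 11323110, both minus strand), and hxk-3 on chromosome IV from 1497626 to 1510027, plus strand, overlapping the noncoding gene Y77E11A.17 on the opposite strand. hxk-1 measured 73.7, 73.9 and 71.1 FPKM in Nar+Glu, 81.3, 77.6 and 80.7 in DMSO+Glu, 80.3, 78.2 and 76.9 in Glu and 98.4, 85.2 and 89.8 FPKM in Control. All 9 glucose-fed libraries thus lay below the lowest Control library, and the Nar+Glu libraries lay below the other glucose-fed libraries. hxk-1 was lower in Glu than in Control by -0.21 on the log2 scale (SE 0.06, limma adjusted p = 0.0159), and in Nar+Glu than in Control by -0.32 (SE 0.06, limma adjusted p = 0.000734). The call of Glu against Control was lost without Glu replicate 3 (limma adjusted p = 0.0613) or Control replicate 1 (0.0525), and under quantile normalization (0.103). The difference of Nar+Glu from DMSO+Glu, -0.13 (SE 0.06), did not pass (limma adjusted p = 0.165), although the libraries did not overlap.

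hxk-2 differed in the same direction as hxk-1, by less against Control and by about as much against DMSO+Glu. It measured 27.9, 27.7 and 25.7 FPKM in Nar+Glu, 30.2, 30.5 and 29.0 in DMSO+Glu, 31.3, 27.4 and 29.3 in Glu and 35.7, 31.04 and 31.3 FPKM in Control. Nar+Glu did not overlap DMSO+Glu or Control, whereas Glu overlapped both its neighbours. Only Nar+Glu against Control passed the threshold, at -0.26 (SE 0.07, limma adjusted p = 0.00829), and not under quantile normalization (adjusted p = 0.259). Nar+Glu against DMSO+Glu gave -0.14 (limma adjusted p = 0.236) and Glu against Control -0.15 (limma adjusted p = 0.119).

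hxk-3 passed the threshold in none of the 5 comparisons. It measured 37.2, 36.8 and 33.7 FPKM in Nar+Glu, 29.8, 34.6 and 33.3 in DMSO+Glu, 37.1, 36.3 and 33.5 in Glu and 36.2, 34.5 and 34.0 FPKM in Control, and the groups overlapped throughout. Its difference was 0.14 between Nar+Glu and DMSO+Glu (95% interval -0.01 to 0.29, limma adjusted p = 0.226) and 0.03 between Glu and Control (95% interval -0.12 to 0.18, limma adjusted p = 0.763). It had the smallest spread of the 9 genes, with a coefficient of variation of 6.12% over the 12 libraries, against 7.25% to 17.6% for the others. The share of hxk-3 in the summed FPKM of the 3 hexokinases does not depend on the scaling between libraries. That share was 26.4% ± 0.503 in Nar+Glu, 22.9% ± 1.62 in DMSO+Glu, 24.9% ± 0.794 in Glu and 22.02% ± 0.836 in Control (SD, n = 3 each), so the ranges of Nar+Glu (25.8% to 26.8%) and DMSO+Glu (21.1% to 24.3%) did not overlap, nor did those of Glu (24.01% to 25.6%) and Control (21.2% to 22.9%). Shares were not tested, and how often those of other genes separate groups was not counted. The summed hexokinase FPKM was 135.9 ± 4.68 in Nar+Glu, 142.4 ± 0.870 in DMSO+Glu, 143.5 ± 4.70 in Glu and 158.7 ± 10.3 in Control (SD, n = 3 each).

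gpi-1 encodes the isomerase that converts glucose 6-phosphate to fructose 6-phosphate and back, and lies on chromosome I from 13576148 to 13581611, plus strand. It measured 40.7, 43.4 and 43.9 FPKM in Nar+Glu, 53.0, 49.3 and 50.1 in DMSO+Glu, 47.7, 46.3 and 45.6 in Glu and 58.6, 49.5 and 48.2 FPKM in Control. The Nar+Glu libraries were the lowest of the 12. gpi-1 was lower in Nar+Glu than in DMSO+Glu by -0.25 (SE 0.07, limma adjusted p = 0.0445) and than in Control by -0.28 (SE 0.07, limma adjusted p = 0.00568). The call against DMSO+Glu lay near the threshold and was lost whichever of the 6 libraries was left out (limma adjusted p = 0.0597 to 0.156), with no filter on low values (0.0529) and with no variance trend (0.0801), and that against Control was lost under quantile normalization (0.296). Glu and Control differed by -0.15 (limma adjusted p = 0.11).

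pfk-1.1, the enzyme of the committed step of glycolysis, lies on chromosome X from 2940872 to 2945485, plus strand. It measured 12.5, 11.8 and 12.3 FPKM in Nar+Glu, 14.3, 14.5 and 13.6 in DMSO+Glu, 12.8, 13.96 and 13.8 in Glu and 12.9, 12.8 and 11.6 FPKM in Control. The 3 DMSO+Glu libraries lay above all Nar+Glu and Control libraries. The difference of Nar+Glu from DMSO+Glu was -0.20 (SE 0.07, limma adjusted p = 0.102), and that of Glu from Control was 0.11 (95% interval -0.04 to 0.27, limma adjusted p = 0.236). Apart from hxk-3, it was the only one of the 9 genes whose mean was higher in Glu than in Control. No comparison of pfk-1.1 passed the threshold.

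The 3 pentose phosphate genes all lie on the plus strand of chromosome IV, gspd-1 from 11317419 to 11319951, tkt-1 from 10243612 to 10245707 and tald-1 from 4386651 to 4388880. gspd-1, the first and NADPH-forming enzyme of the oxidative branch, measured 24.04, 22.9 and 23.8 FPKM in Nar+Glu, 27.8, 29.10 and 27.03 in DMSO+Glu, 26.8, 26.6 and 26.1 in Glu and 32.8, 30.9 and 29.15 FPKM in Control. The 3 Nar+Glu libraries lay below every other library, and the 3 Control libraries above every other, by a narrow margin over the highest DMSO+Glu library. gspd-1 was lower in Nar+Glu than in DMSO+Glu by -0.24 (SE 0.06, limma adjusted p = 0.0288), in Glu than in Control by -0.22 (SE 0.06, limma adjusted p = 0.0199) and in Nar+Glu than in Control by -0.38 (SE 0.06, limma adjusted p = 0.000375). The call of Nar+Glu against DMSO+Glu was lost whichever of the 6 libraries was left out (limma adjusted p = 0.0551 to 0.0903). That of Glu against Control was lost without Glu replicate 3 (0.0677) or Control replicate 1 (0.0591), in a fit to those 6 libraries alone (0.0628) and under quantile normalization (0.307), whereas the call of Nar+Glu against Control held in every alternative, with the highest adjusted p, 0.0468, in an unmoderated F test with a library-size covariate.

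tkt-1, which exchanges carbon units between sugar phosphates in the non-oxidative branch, was the one gene of the 9 called in 4 comparisons. It measured 91.4, 93.7 and 90.5 FPKM in Nar+Glu, 119.1, 108.0 and 112.3 in DMSO+Glu, 108.9, 110.2 and 106.5 in Glu and 123.0, 122.8 and 120.4 FPKM in Control. The 3 Nar+Glu libraries lay below all other libraries and the 3 Control libraries above all others. tkt-1 was lower in Nar+Glu than in DMSO+Glu by -0.30 (SE 0.05, limma adjusted p = 0.00271), than in Glu by -0.24 (SE 0.05, limma adjusted p = 0.00889) and than in Control by -0.41 (SE 0.05, limma adjusted p = 4.43e-05). It was lower in Glu than in Control by -0.17 (SE 0.05, limma adjusted p = 0.0232). Leaving out any 1 library kept the calls of Nar+Glu against DMSO+Glu (limma adjusted p = 0.00397 to 0.0157) and against Glu (0.0223 to 0.044). The call of Glu against Control was lost without Glu replicate 3 (0.0831), under median-ratio scaling (0.216), under quantile normalization (0.258), in a fit to those 6 libraries alone (0.0564) and with no variance trend (0.0577), and that of Nar+Glu against Glu under quantile normalization (0.0533).

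tald-1, which works beside transketolase in the same branch, was dominated by 1 library. It measured 32.7, 35.5 and 32.1 FPKM in Nar+Glu, 41.6, 42.0 and 41.4 in DMSO+Glu, 39.4, 41.5 and 21.05 in Glu and 44.2, 43.9 and 40.4 FPKM in Control. Glu replicate 3 held 0.655 of the next lowest library, and was below 0.7 of it for 2 of the 8080 genes with a mean of at least 5 FPKM, so this library stood apart for few genes. The difference of Nar+Glu from DMSO+Glu was -0.31 (SE 0.17, limma adjusted p = 0.263) although the 3 Nar+Glu libraries lay below all 3 DMSO+Glu libraries, since all 12 libraries share 1 estimate of the spread of a gene. In a fit to only the 6 libraries compared, which holds no Glu library, it was called lower in Nar+Glu than in DMSO+Glu (limma adjusted p = 0.0169) and than in Control (0.00406). Without Glu replicate 3, a choice made after seeing the data, it was lower in Nar+Glu than in DMSO+Glu with a limma adjusted p of 0.0107 and lower than in Control with 0.000967. Mean FPKM of tald-1 was 33.4 in Nar+Glu and 34.0 in Glu, whereas the log2 difference had the other sign, 0.04 with all libraries (limma adjusted p = 0.928). That difference was -0.27 without Glu replicate 3 (limma adjusted p = 0.0444), so its sign turned without that library. It turned also without Nar+Glu replicate 2.

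Naringin was set against its solvent by comparing Nar+Glu with DMSO+Glu, where 3 of the 9 genes were called lower (gpi-1, gspd-1 and tkt-1) and 0 higher. Over the whole table of 12151 tested genes, 5% were called lower, 4.87% higher and 9.87% in either direction. The count was 1 (tkt-1) whichever of the 6 libraries was left out, and 0 in an unmoderated F test with a library-size covariate, which at the same adjusted threshold also left 0 of all genes called. The criterion of the study, a fold change with an unadjusted p, was not applied here. In a fit to only these 6 libraries the count was 4, with tald-1 added. Differences were negative for 8 of the 9 genes, with a median of -0.20, against -0.01 over all genes, of which 51.9% were negative. Over genes with a mean above 5 FPKM the median was -0.05. For 7 of the 9 genes all 3 Nar+Glu libraries lay below all 3 DMSO+Glu libraries, which held for 18.9% of all genes, and for 0 of 9 they lay above, which held for 15.7%. At an unadjusted p below 0.05 there were 5 of the 9 genes, against 26.9% of all genes.

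Adding the solvent to glucose gave no call. Between DMSO+Glu and Glu, limma called 0 of the 9 genes, against 1.25% of all genes (0.379% higher and 0.872% lower), and 0 of 9 at an unadjusted p below 0.05, against 9.36%. The fit with a library-size covariate called 0 as well. The differences ran from -0.13 for hxk-3 (95% interval -0.28 to 0.02) to 0.35 for tald-1 (95% interval -0.02 to 0.72), with 8 of 9 positive and a median of 0.06. For gpi-1 (interval -0.03 to 0.28) and gspd-1 (interval -0.06 to 0.21) the DMSO+Glu libraries lay above all Glu libraries, which held for 7.28% of all genes, and for 0 of 9 genes they lay below (7.93%). Nar+Glu against DMSO+Glu and DMSO+Glu against Glu share the DMSO+Glu libraries, so opposite signs in the pair are not independent.

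With glucose against no glucose, the 9 genes were called about as often as all genes, 33.3% against 31.3%. Between Glu and Control 3 of the 9 genes were called lower (hxk-1, gspd-1 and tkt-1) and 0 higher, where 18.7% of all genes were called lower, 12.6% higher and 31.3% in either direction. Higher calls made up 40.2% of these, and 59.4% under median-ratio scaling or 51.2% under quantile normalization. The count was 0 without Glu replicate 3, 1 without Control replicate 1, and 0 under quantile normalization. Differences were negative for 7 of 9, the exceptions being hxk-3 and pfk-1.1. Their median was -0.17 over the 9, against -0.06 over all genes and -0.13 over genes with a mean above 5 FPKM. Under median-ratio scaling the median of the 9 was -0.09 (all genes 0.01), and under quantile normalization -0.08 (all genes -0.03). In 4 of the 9 genes (hxk-1, gpi-1, gspd-1 and tkt-1) the Glu libraries did not overlap and lay below the Control libraries, which held for 27.5% of all genes, and in 0 of 9 they lay above (17.9%). An unadjusted p below 0.05 was reached by 5 of the 9 genes, against 45% of all genes.

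Against Glu, Nar+Glu differs by naringin and by solvent at once. There 1 of the 9 genes, tkt-1, was called lower, where 4.53% of all genes were called lower, 3.84% higher and 8.37% in either direction. An unadjusted p below 0.05 was reached by 2 of 9, against 22.6% of all genes. In 5 of 9 the Nar+Glu libraries lay below with no overlap and in 0 above, against 15.8% and 14.4% of all genes. Against Control, Nar+Glu differs also by glucose, and 6 of the 9 genes were called lower (fgt-1, hxk-1, hxk-2, gpi-1, gspd-1 and tkt-1), where 33.2% of all genes were called lower, 21.6% higher and 54.8% in either direction. Higher calls made up 39.4% of these, and 52.9% under median-ratio scaling. The same number, 6 of 9, reached an unadjusted p below 0.05, against 60.8% of all genes. The Nar+Glu libraries lay below with no overlap in 7 of 9 and above in 0 of 9, against 36.5% and 24.2% of all genes. The median of the 9 was -0.28, against -0.09 over all genes. Under quantile normalization the count was 3, and hxk-3 was then called higher (0.23, limma adjusted p = 0.00986).

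**Figure D2:**
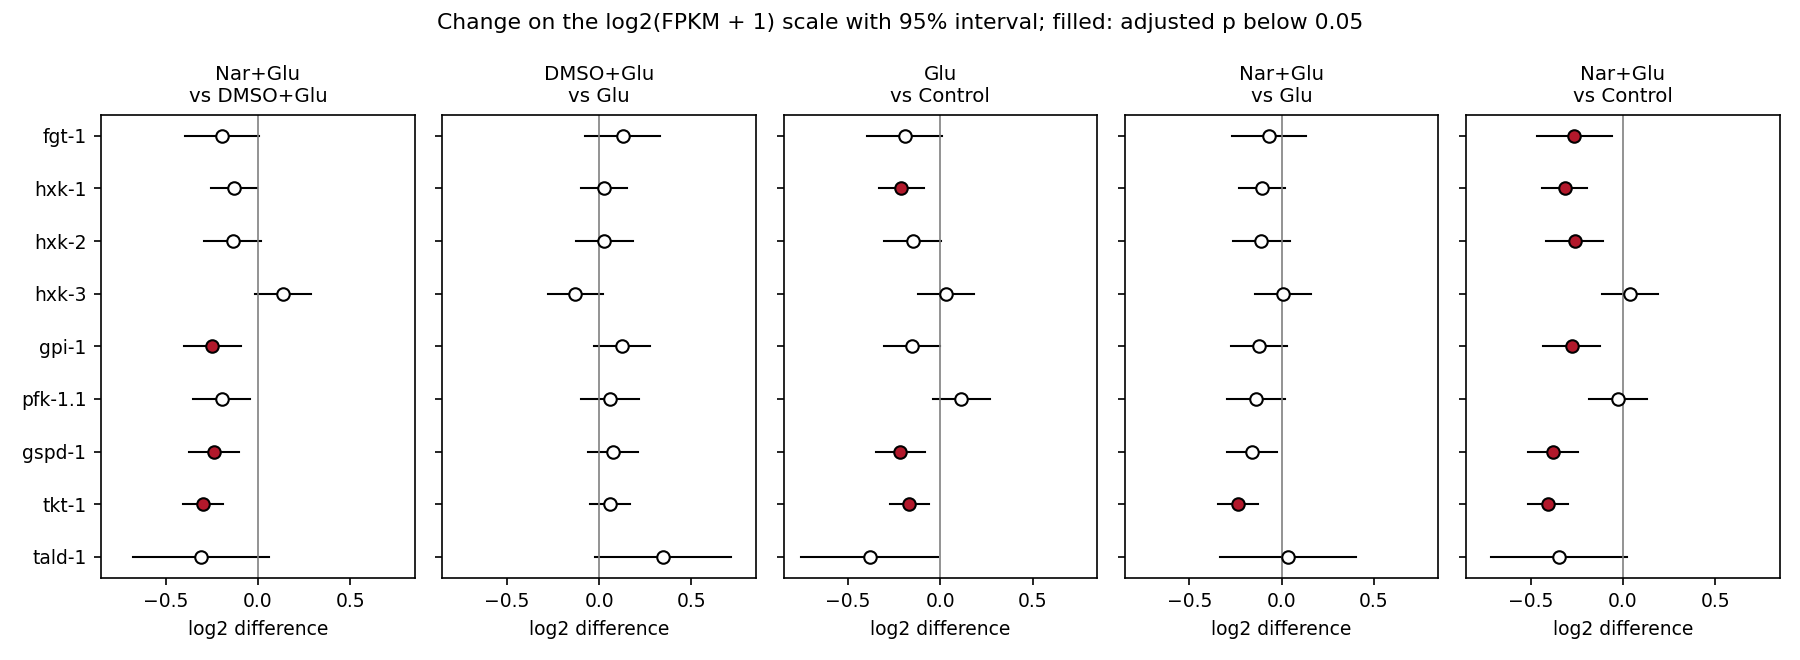
Difference between groups for each of the 9 genes (rows) in the 5 comparisons (panels), on the log2(FPKM + 1) scale (x axis), first group minus second. Points are estimates, lines are 95% intervals, and filled points have a limma adjusted p below 0.05. In Nar+Glu against DMSO+Glu 8 of 9 points lie left of 0 and hxk-3 lies right of it. The wide intervals of tald-1 carry the low Glu replicate 3.

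Ratios of gspd-1 and of gpi-1 to pfk-1.1 within a library, which do not depend on the scaling between libraries, separated Control from the glucose-fed groups. Both ratios have pfk-1.1 as the denominator, and the ratio of gspd-1 to gpi-1 was not computed. The ratio of gspd-1 to pfk-1.1 was 1.93 ± 0.0121 in Nar+Glu, 1.98 ± 0.0306 in DMSO+Glu, 1.96 ± 0.112 in Glu and 2.49 ± 0.0643 in Control (SD, n = 3 each). All 9 glucose-fed libraries (1.89 to 2.09) lay below the 3 Control libraries (2.42 to 2.54), while the means of the 3 glucose-fed groups lay within 0.1 of each other. The ratio of gpi-1 to pfk-1.1 was 3.50 ± 0.224 in Nar+Glu, 3.596 ± 0.166 in DMSO+Glu, 3.44 ± 0.237 in Glu and 4.18 ± 0.338 in Control (SD, n = 3 each), again with no overlap between the glucose-fed libraries (3.25 to 3.72) and Control (3.87 to 4.54). These ratios are given as a description, with no test, and how many other gene pairs separate in this way was not counted. Of single genes, 27.5% lay below with no overlap in Glu against Control and 17.9% lay above. The ratio of tkt-1 to tald-1 was 2.75 ± 0.0946 in Nar+Glu, 2.72 ± 0.145 in DMSO+Glu and 2.85 ± 0.112 in Control, and in Glu it was 3.49 ± 1.36 because Glu replicate 3 stood at 5.06 (SD, n = 3 each).

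**Figure D3:**
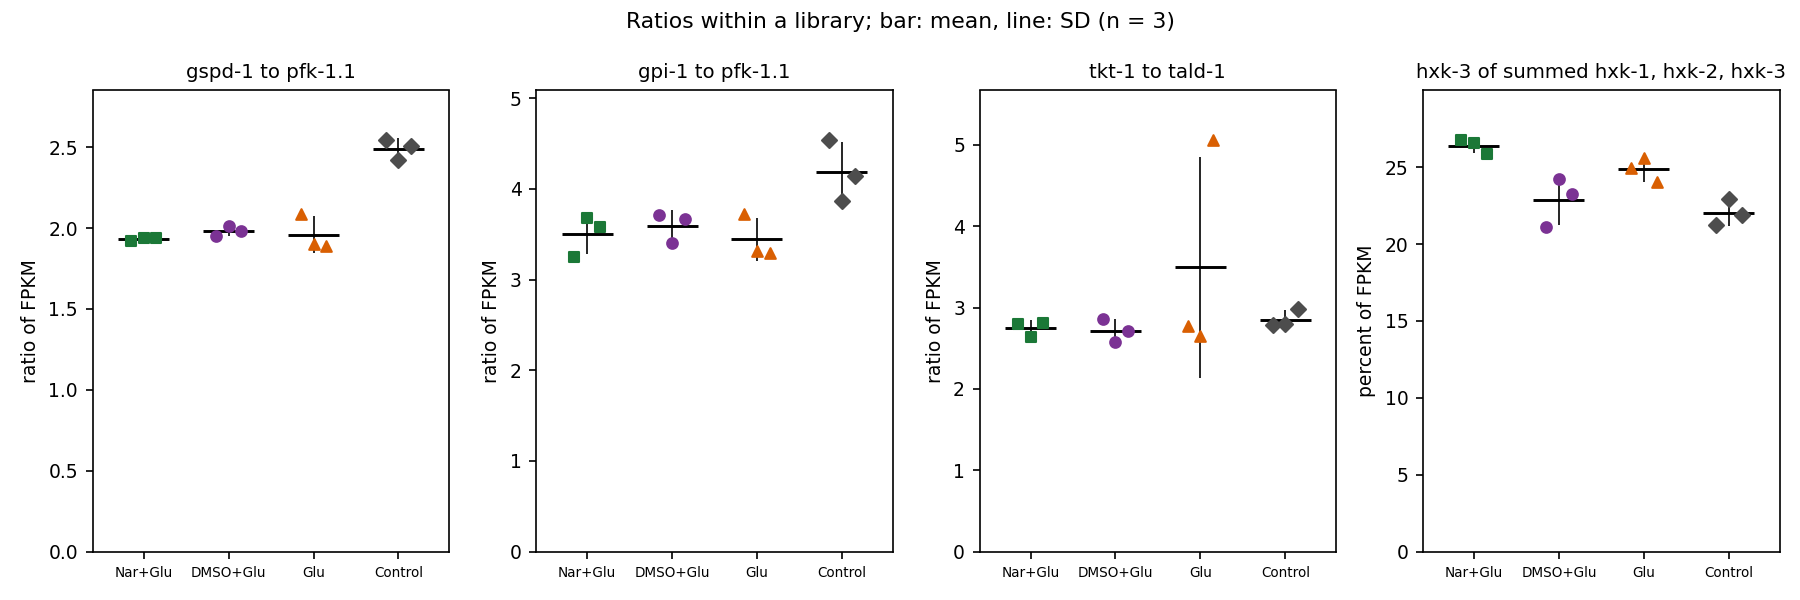
Ratios of FPKM within a library (first 3 panels) and the share of hxk-3 in the summed FPKM of the 3 hexokinases in percent (last panel), by group. Points are libraries, bars are means and lines are SD (n = 3), with y axes from 0. The ratio of gspd-1 to pfk-1.1 is 2.42 to 2.54 in Control and 1.89 to 2.09 in the glucose-fed libraries.

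The transcript table held 25 transcripts of the 9 genes, of which 18 had a mean above 1 FPKM and were tested among 17588. For most genes 1 transcript carried the level. F14B4.2a.1 held 99.0% of hxk-1, F01G10.1.2 held 98.4% of tkt-1, Y24D9A.8a.2 held 95.2% of tald-1, Y71H10A.1a held 93.5% of pfk-1.1 and Y87G2A.8b held 83.7% of gpi-1, while fgt-1, hxk-2 and gspd-1 had 1 listed transcript each. Between Nar+Glu and DMSO+Glu 1 of 18 transcripts was called lower, F01G10.1.2 of tkt-1 at -0.34 (limma adjusted p = 0.0127), where 2.19% of all transcripts were called. That call was lost without Nar+Glu replicate 1 or Nar+Glu replicate 3 (highest limma adjusted p = 0.0523). In Glu against Control 3 were called lower, where 9.39% of all transcripts were called, namely B0035.5 of gspd-1 (-0.22, limma adjusted p = 0.04), F01G10.1.2 (-0.20, 0.0429) and F14B4.2a.1 of hxk-1 (-0.21, 0.0313). Each of these 3 was lost without at least 4 of the 6 libraries in turn. No transcript of the 9 genes was called higher in any comparison.

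hxk-3 and gpi-1 differed between libraries of a group in which transcript carried the reads. Of hxk-3, Y77E11A.1a.1 stood at 33.03 and 31.97 FPKM in Control replicates 1 and 3 and at 5.28 FPKM in Control replicate 2, whereas Y77E11A.1a.2 stood at 0.719, 0.452 and 27.9 FPKM in Control replicates 1, 3 and 2. The 9 glucose-fed libraries resembled Control replicate 2, with more of Y77E11A.1a.2 than of Y77E11A.1a.1 in each. Their gene values were close all the same, at 36.2, 34.5 and 34.0 FPKM in Control. Of gpi-1, Y87G2A.8a.1 stood at 6.95, 6.80 and 8.24 FPKM in Nar+Glu, at 0, 0 and 8.50 in DMSO+Glu, was listed at 0 in all 3 Glu libraries, and stood at 8.28, 0 and 5.08 FPKM in Control. The main transcript Y87G2A.8b was 32.3, 33.1 and 31.1 FPKM in Nar+Glu and 51.8, 46.6 and 34.6 FPKM in DMSO+Glu, lowest in the DMSO+Glu library that held Y87G2A.8a.1. An exact 0 in such a table can be a failed estimate of overlapping transcripts, so the split is given as listed. Of tald-1, Y24D9A.8a.2 stood at 26.2 FPKM in Glu replicate 3 and at 53.1 and 56.0 FPKM in the other Glu libraries. These are above the gene values of the same libraries, so a level in the transcript table is not to be set against one in the gene table.

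Circular RNAs found at these loci were at the limit of detection. Of 2136 circular RNAs, only the 1864 with coordinates could be placed, and the rest were not searched. Of these 1864, 5 lay inside a locus of the 9 genes, 2 in fgt-1, 2 in hxk-2 and 1 in hxk-3. The 5 summed to 0 of 3200 counts of all 2136 in Nar+Glu, 7 of 3744 in DMSO+Glu, 1 of 3362 in Glu and 1 of 2709 in Control. No library held more than 2 counts of any of them. For these 5, a count of 0 over the Nar+Glu group allows a share of up to 0.0938% (3 counts), which covers counting error only. At such low counts, differences between groups were not tested. The highest counts, 2 each, were of chrI:11319742-11320099 inside hxk-2 in DMSO+Glu replicate 3 and of chrIV:1506944-1508356 inside hxk-3 in DMSO+Glu replicate 2.

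Across the 12 libraries, which share their groups and scaling, most of the 9 genes varied together, and hxk-3 and pfk-1.1 least so. Pearson's r of log2(FPKM + 1) was 0.91 between hxk-1 and hxk-2, 0.91 between gspd-1 and tkt-1, and 0.89 between hxk-1 and gspd-1. Within groups, after the group means were removed, r was 0.73 between hxk-1 and hxk-2 but -0.12 between gspd-1 and tkt-1, so gspd-1 and tkt-1 moved together between groups and not within them. tkt-1 and tald-1 had an r of 0.52 over all libraries and of 0.94 without Glu replicate 3. hxk-3 had an r of -0.44 to 0.03 with the other 8 genes and pfk-1.1 one of -0.41 to 0.35. Among 8079 other genes with a mean of at least 5 FPKM, the nearest by r over the 12 libraries were mogs-1 (0.98) for hxk-1, akir-1 (0.97) for hxk-2, art-1 (0.98) for gspd-1, tba-1 (0.98) for tkt-1, sel-2 (0.96) for gpi-1, clh-6 (0.94) for fgt-1, pbo-1 (0.92) for hxk-3, atn-1 (0.89) for pfk-1.1 and mett-10 (0.88) for tald-1. They were picked as the highest of many pairs over libraries that share their groups, and are given as a description.

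Other genes of hexose transport, upper glycolysis and the pentose phosphate pathway were counted beside the 9. Of 16 listed, 14 were in the table and tested. For this list and those below, the shares of all tested genes in Nar+Glu against DMSO+Glu were 5% lower and 4.87% higher. In Glu against Control they were 18.7% lower and 12.6% higher. Between Nar+Glu and DMSO+Glu 1 of the 14 was lower and 0 higher (median -0.12), and between Glu and Control 8 were lower and 3 higher (median -0.23). The lower count with glucose was 4 under median-ratio scaling and 3 under quantile normalization. The lower gene in Nar+Glu was T25B9.9, at 43.8 ± 1.71 FPKM against 56.2 ± 2.55 in DMSO+Glu (SD, n = 3 each, -0.35, limma adjusted p = 0.0031). The sugar transporter gene swt-1, of the SWEET family, was higher with glucose. It was 9.002 ± 0.423 FPKM in Glu and 3.61 ± 0.827 in Control (SD, n = 3 each), a difference of 1.13 on the log2 scale (SE 0.13, limma adjusted p = 4.19e-05). swt-1 was lower in DMSO+Glu (5.25 ± 0.614 FPKM, SD, n = 3) than in Glu by -0.68 (limma adjusted p = 0.0171), a call that was lost without DMSO+Glu replicate 1 or 3 or Glu replicate 1 or 3 (highest limma adjusted p = 0.0892). swt-6, of the same family, was 3.605 ± 0.192 FPKM in Glu and 2.15 ± 0.0838 in Control (SD, n = 3 each, 0.55, limma adjusted p = 0.0109), and C35A11.4 was 1.68 ± 0.497 FPKM in Glu and 3.05 ± 0.276 in Control (SD, n = 3 each, -0.61, limma adjusted p = 0.0082).

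Lower glycolysis turns the product of phosphofructokinase into pyruvate. Its genes were listed together with the lactate dehydrogenase gene ldh-1, 13 in all. Of these 13, 8 were lower and 0 higher in Nar+Glu against DMSO+Glu (median -0.21), and 0 were lower and 4 higher in Glu against Control (median -0.02). The aldolase gene aldo-1 was 29.9 ± 0.340 FPKM in Nar+Glu and 40.8 ± 1.66 in DMSO+Glu (SD, n = 3 each, -0.43, limma adjusted p = 0.000953). The glyceraldehyde-3-phosphate dehydrogenase genes gpd-2 (-0.38, limma adjusted p = 0.00175) and gpd-3 (-0.33, 0.00361) and the phosphoglycerate kinase gene pgk-1 (-0.30, 0.0192) were lower there as well. The pgk-1 call was lost without Nar+Glu replicate 1 or 3 or DMSO+Glu replicate 3 (highest limma adjusted p = 0.0793). With glucose, gpd-3 was 102.9 ± 5.21 FPKM in Glu and 80.7 ± 4.74 in Control (SD, n = 3 each, 0.35, limma adjusted p = 0.00116). The gpd genes include near-identical copies, so the division of reads among them is uncertain.

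The branches that leave glucose 6-phosphate and fructose 6-phosphate for storage and amino sugars had 6 tested genes, of which 4 were lower in Nar+Glu against DMSO+Glu and 3 lower and 2 higher in Glu against Control. The phosphoglucomutase gene R05F9.6 (pgm-1 in RefSeq), which leads to glycogen, was 37.3 ± 1.06 FPKM in Nar+Glu and 46.4 ± 1.09 in DMSO+Glu (SD, n = 3 each, -0.31, limma adjusted p = 0.00807). gfat-1, a glutamine-fructose-6-phosphate aminotransferase of the hexosamine pathway, was 70.4 ± 5.09 FPKM in Nar+Glu and 91.4 ± 8.53 in DMSO+Glu (SD, n = 3 each, -0.37, limma adjusted p = 0.00634). The calls of gfat-2 (-0.21, limma adjusted p = 0.0358) and of the glycogen synthase gene gsy-1 (-0.22, 0.0462) did not hold: that of gsy-1 was lost whichever of the 6 libraries was left out (highest limma adjusted p = 0.141), and that of gfat-2 likewise except without DMSO+Glu replicate 2 (highest 0.137). Gluconeogenesis had 4 genes, with 1 lower in each of these comparisons, the fructose-bisphosphatase gene fbp-1, at -0.23 in Nar+Glu against DMSO+Glu (limma adjusted p = 0.0359) and -0.22 in Glu against Control (0.0197). Both fbp-1 calls were lost on leaving out single libraries, each of the 6 in turn for the first (highest limma adjusted p = 0.106) and Glu replicate 2 or Control replicate 1 for the second (highest 0.0678).

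The list of 5 other NADPH-linked enzymes left out T25B9.9, counted above with the pentose phosphate pathway and lower in Nar+Glu than in DMSO+Glu. Of these 5, 0 were called in Nar+Glu against DMSO+Glu, and 1 was higher and 1 lower in Glu against Control. The higher one was nnt-1, the mitochondrial transhydrogenase that makes NADPH without glucose 6-phosphate, at 4.52 ± 0.402 FPKM in Glu and 1.35 ± 0.192 in Control (SD, n = 3 each, 1.23, limma adjusted p = 1.02e-05). nnt-1 was lower in DMSO+Glu (2.40 ± 0.0658 FPKM, SD, n = 3) than in Glu by -0.70 (limma adjusted p = 0.00838), a call that was lost without Glu replicate 3 (0.0546). Of 5 genes of the Myc-Mondo-Mlx family of transcription factors, 0 were called in Nar+Glu against DMSO+Glu, and 2 were higher and 1 lower in Glu against Control (median -0.0014). mdl-1 was 26.7 ± 2.64 FPKM in Glu and 14.01 ± 1.38 in Control (SD, n = 3 each, 0.88, limma adjusted p = 8.92e-05), and mxl-3 was 21.9 ± 0.800 FPKM in Glu and 11.7 ± 1.34 in Control (SD, n = 3 each, 0.86, limma adjusted p = 0.000107). The lower gene was mxl-1, at 34.9 ± 4.00 FPKM in Glu and 41.2 ± 0.689 in Control (SD, n = 3 each, -0.24, limma adjusted p = 0.0377), a call that was lost without any 1 of the 6 libraries except Glu replicate 3 (highest limma adjusted p = 0.154). The opposite signs of mdl-1 and mxl-3 and of gspd-1 and hxk-1 in this comparison stand side by side and were not related by a test.

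**Figure D4:**
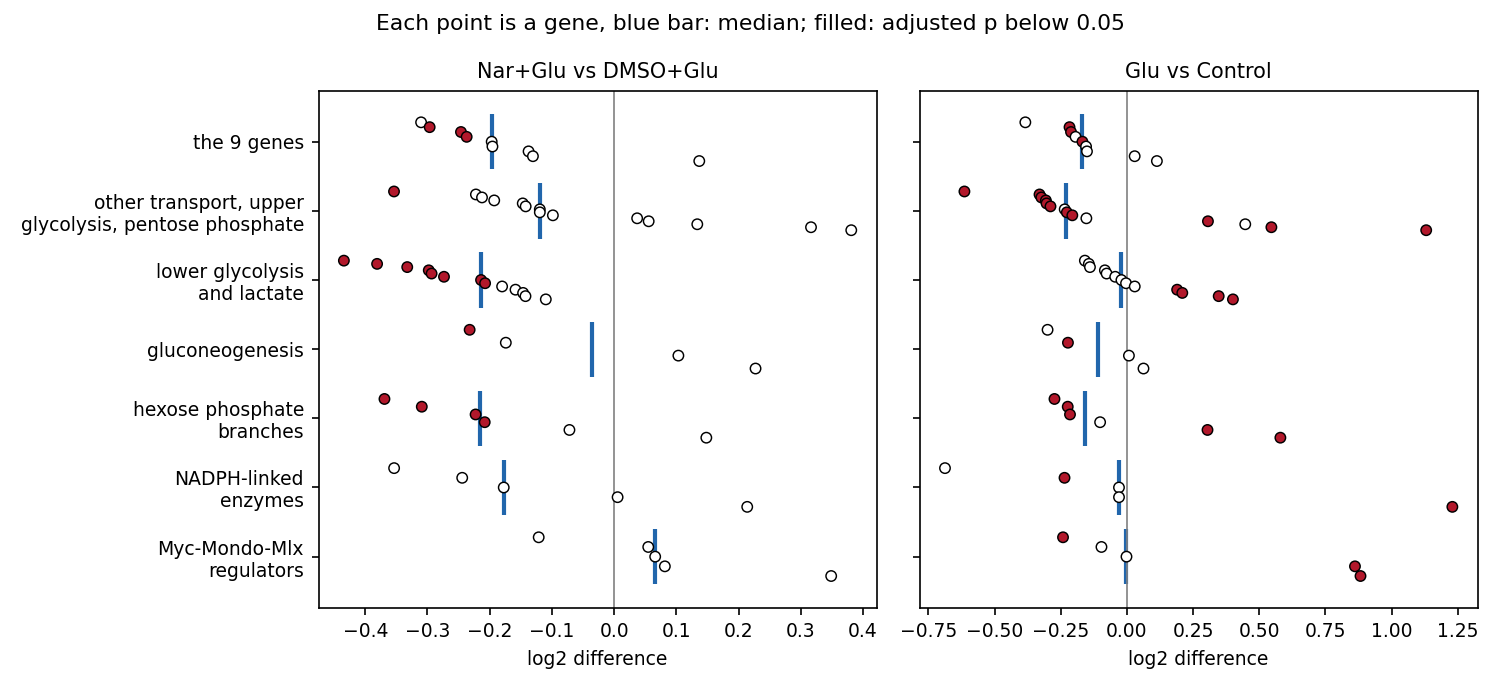
Differences on the log2(FPKM + 1) scale (x axes) of the 9 genes and of the other genes of each list (rows) in Nar+Glu against DMSO+Glu (left) and Glu against Control (right). Each point is a gene, the blue bar is the list's median, and filled points have a limma adjusted p below 0.05. On the left, 8 of 13 lower glycolysis and lactate genes are filled and all 13 lie below 0. On the right, their median is -0.02, and that of the 9 genes is -0.17.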

How the data were processed

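From poly(A)-enriched, stranded libraries, the authors made FPKM for genes and transcripts with HISAT2 2.1.0, StringTie 1.3.3 and Ballgown on the WBcel235 assembly. No deposited gene had all its group means below 0.5 FPKM. Circular RNAs are deposited as raw counts from STAR 2.5.2b and CIRCexplorer2, and 1 was added to their starts. Each library is 1 sample, grouped by its label.

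Genes with a mean over 1 FPKM across the 12 libraries (12151) were transformed to log2(FPKM + 1), and limma 3.58.1 (R 4.3.3) fitted all groups at once, with moderated variances that follow a trend with the mean. Tests were two-sided. The threshold for a call was an adjusted p of 0.05 (Benjamini-Hochberg, within a comparison). The 17588 transcripts were treated likewise. The model was tested on simulated data, and matplotlib 3.10.9 drew the figures (Python 3.11.15).

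All 9 genes are named. In every other list the text names up to 4 genes, those called most often, ties by size of change. The members and lists were chosen with earlier results of these data known. Loci are those of the WBcel235 annotation. Alternatives were other pseudocounts, filters, scalings, fits and left-out libraries.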

Additional observations from a re-analysis of the deposited data

How the results depend on the processing

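Calls of the 9 genes depended on the fit more than their signs did. Genes called lower in Nar+Glu against DMSO+Glu (3) were 0 with a library-size covariate and an unmoderated F test, which left 0 of 12151 genes called, 4 in a fit to only the 6 libraries compared, and 1 to 3 with 1 library left out. In Glu against Control (3) they were 0 under quantile normalization, 1 in a fit to only the 6 libraries compared, 0 with the covariate and 0 to 4 with 1 library left out. In Nar+Glu against Glu (1) they were 0 under quantile normalization, 0 with the covariate and 1 to 2 with 1 library left out, and in Nar+Glu against Control (6) they were 3 under quantile normalization, 2 with the covariate, 7 in a fit to the 6 libraries and 5 to 7 with 1 library left out, while 1 gene (hxk-3) was called higher under quantile normalization (main count 0). The cause was not tested.

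Signs reversed for differences near 0, for tald-1 and for pyc-1, a gluconeogenesis gene called lower in Nar+Glu than in Control (-0.19, limma adjusted p = 0.0169). With Nar+Glu set against Control, pfk-1.1 was 0.0625 under median-ratio scaling, 0.00092 under quantile normalization and -0.0693 to 8.12e-05 with 1 library left out (positive without Control replicate 1), hxk-3 was -0.0199 with the covariate, and pyc-1 was 0.0033 under quantile normalization. With Nar+Glu set against Glu and 1 library left out, fgt-1 was -0.136 to 0.0087 (positive without Nar+Glu replicate 1), hxk-3 was -0.0338 to 0.0519 (negative without Nar+Glu replicate 1, Nar+Glu replicate 2 or Glu replicate 3), and tald-1 was -0.268 to 0.206 (negative without Nar+Glu replicate 2 or Glu replicate 3). With DMSO+Glu set against Glu, hxk-2 was -0.0186 to 0.0742 (negative without Glu replicate 2). The share of higher calls among all called genes was 40.2% in Glu against Control, 59.4% under median-ratio scaling, 51.2% under quantile normalization and 27.5% with a mean above 5 FPKM, and in Nar+Glu against Control it was 39.4%, 52.9% under median-ratio scaling and 25.6% with a mean above 5 FPKM. In DMSO+Glu against Glu it was 30.3%, and 43% with a mean above 5 FPKM. Over all genes, the covariate left 0 called in Nar+Glu against DMSO+Glu, 0 in DMSO+Glu against Glu, 124 in Glu against Control, 1 in Nar+Glu against Glu and 628 in Nar+Glu against Control.

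No source used here says whether libraries with the same replicate number were handled together. Residuals of same-numbered libraries correlated at -0.1 to 0.128 over 18 pairs. Pairs of unlike number were not computed, so these values cannot decide it. In a fit with a block for the replicate number, 1118, 130, 3811, 961 and 6678 of all genes were called in the same 5 comparisons, and none of the 9 genes changed its call. FPKM with unknown depth and 3 libraries a group limit what differences can be seen. Pseudocounts of 0.5 and 0.1 changed no call of the 9 genes.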
